A study of Mus musculus with 2 samples.

Results

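Cytoplasmic actins and tubulins are the building blocks of actin filaments and microtubules, and 10 mouse genes that encode them were followed in liver RNA: Actb, Actg1, Tubb2a, Tubb2b, Tubb5, Tubb6, Tuba1a, Tuba1b, Tuba1c and Tuba4a. A gene was read by array probe sets, each a group of short probes summarised as 1 signal, whose platform annotation names that gene alone. By this rule 8 of the 10 genes had 14 probe sets, among 18193 genes and 34945 such probe sets on the array. Tuba1b and Tuba1c had none, because every probe set that names them also names another gene. The genes were chosen with the values of these arrays known, so their differences are given as a description.

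The study used male wild-type C57BL/6 mice, 8 weeks old. Mice of the injury group underwent warm bilateral kidney ischaemia, lasting 30 minutes and ended by reperfusion, a treatment labelled acute kidney injury, and the sham group had sham surgery. Livers were collected 24 hours later, and frozen liver (100 mg, per the labels) of 3 mice per group was pooled, so each group is 1 pool on 1 Affymetrix array, called the sham pool and the injury pool. With 1 array per group there is no replicate error, and no test or p-value is given.

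Actin polymerises into filaments that in hepatocytes lie under the plasma membrane and surround the bile canaliculi. Alpha and beta tubulin pair into dimers that form microtubules, the tracks along which hepatocytes move secretory vesicles. Cells adjust both supplies at the level of RNA. Free actin holds back MRTF, a cofactor of the transcription factor SRF, which binds the CArG box in promoters of actin genes, and free tubulin triggers the decay of tubulin mRNA on ribosomes through the protein TTC5.

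Promoters of 7 of the 10 genes were in the RefSeq table of mouse sequences (GRCm38.p6). Those of Actb, Tubb2b and Tubb6 were not, so they could not be searched. The 3 below belong to Actg1 and Tubb2a, both far higher in the injury pool, and to the tubulin gene Tuba4a, which was not. They were picked by these differences and only show how their starts differ. Each is the 250 bases before the transcript's start, written 5′ to 3′ on the gene's strand, and capitals mark matches on either strand to a CArG box, the TATA box (TATAAA), the CAAT box (CCAAT) or the GC box (GGGCGG). Matches to different motifs do not overlap in these stretches, which are shown without the bases after the start.
Actg1 (chr11:120348496-120348745, minus strand): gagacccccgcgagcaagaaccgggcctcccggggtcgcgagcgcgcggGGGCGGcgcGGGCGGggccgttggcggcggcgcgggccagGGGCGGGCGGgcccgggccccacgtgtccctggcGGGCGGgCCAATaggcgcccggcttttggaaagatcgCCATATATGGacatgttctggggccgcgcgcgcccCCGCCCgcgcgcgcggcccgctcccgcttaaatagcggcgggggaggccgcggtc
Tubb2a (chr13:34078009-34078258, minus strand): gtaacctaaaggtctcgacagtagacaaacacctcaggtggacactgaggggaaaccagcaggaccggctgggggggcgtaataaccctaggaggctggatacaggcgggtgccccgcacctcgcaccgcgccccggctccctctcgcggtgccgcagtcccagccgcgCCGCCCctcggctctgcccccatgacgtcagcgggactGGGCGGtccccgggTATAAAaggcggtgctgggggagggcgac
Tuba4a (chr1:75219295-75219544, minus strand): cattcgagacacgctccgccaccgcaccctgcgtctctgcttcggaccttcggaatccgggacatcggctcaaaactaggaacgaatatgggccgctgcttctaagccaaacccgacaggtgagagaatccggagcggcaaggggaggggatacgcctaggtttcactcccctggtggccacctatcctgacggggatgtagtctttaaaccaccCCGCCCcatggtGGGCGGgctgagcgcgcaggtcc

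Positions are counted back from the transcript's start, -1 being the base before it. Actg1 held a CArG box, CCATATATGG, from -90 to -81, a CAAT box from -120 to -116 and 6 GC boxes, a pair of which overlap. Tubb2a held a TATA box from -29 to -24 and 2 GC boxes, and Tuba4a held 2 GC boxes and none of the others. In windows of 300 bases, reaching 50 bases past the start, a CArG box was found in 1.63% of 32851 promoters, a TATA box in 13.6%, a CAAT box in 37.4% and a GC box in 35.7%. Of the 7 members with a promoter listed, Actg1 was the only 1 with a CArG box in that window and Tubb2a the only 1 with a TATA box. Tubb5, also higher in the injury pool, had neither. Actg1 was the only actin gene searched, so nothing is known here of a CArG box in Actb. A match describes the letters of the window and is not evidence of binding.

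A probe set was kept when its brighter signal reached the median of the array it came from, 257.0 for sham and 254.1 for injury. Differences are log2(signal + 16) in the injury pool minus that in the sham pool, and folds are on the same scale, which understates the change of dim probe sets. A gene was read by its kept probe set with the highest mean log2 signal. Of the 10 genes, 7 were read, by 12 kept probe sets. The beta tubulins read and gamma-actin were the highest members: Tubb6, Tubb2a, Actg1 and Tubb5 were higher in the injury pool by 2-fold or more, and no member was 2-fold lower. Among all 13117 genes, 8.71% were higher by 2-fold or more and 9.59% were lower by as much. Since the members were chosen on these values, nothing is read from this contrast.

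**Figure D1:**
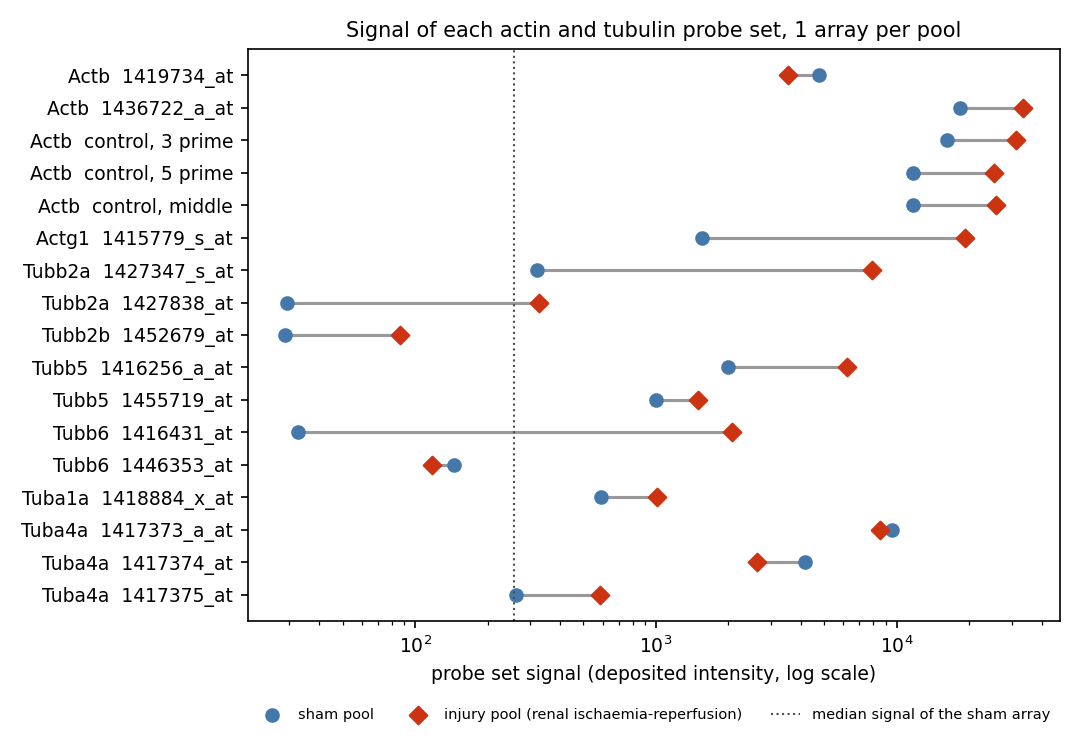
Deposited signal of each member probe set and of the beta-actin control probe sets (horizontal log axis) in the sham pool (blue circles) and the injury pool (red diamonds), with the median signal of the sham array as a dotted line. The longest lines are those of Tubb6 (32.6 to 2069), Tubb2a (321.2 to 7862) and Actg1 (1561 to 19163). The probe sets of Actb and of Tuba4a differ in direction, as do those of Tubb6, whose lower one (145.0 to 116.9) is dim on both arrays.

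Tubb6 encodes a broadly expressed beta tubulin. Its kept probe set read 32.6 in the sham pool and 2069 in the injury pool. It was kept through the injury pool alone, and with the sham signal under the array median only a bound against that median can be given, at least 7.64-fold higher. As measured, the log2 difference was 5.42. A further probe set of Tubb6 was dim on both arrays, with signals of 145.0 and 116.9, and was not kept.

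Tubb2a encodes a beta tubulin best known from neurons but expressed more widely. By the probe set that read the gene, the signal went from 321.2 in the sham pool to 7862 in the injury pool, a log2 difference of 4.55 (23.4-fold). This probe set has the suffix _s_at and can bind transcripts of more than 1 gene, so its value is uncertain. The other Tubb2a probe set, which lacks the suffix, had signals of 29.2 and 325.6. It was higher too, by 2.92 as measured, but with the sham signal under the array median the bound is only 1.25-fold. Tubb2b, a close relative that is mainly neuronal, had signals of 28.7 and 86.5, under the median on both arrays, so no fold is given.

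Tubb5, the common beta tubulin of most tissues, read 1983 in the sham pool and 6229 in the injury pool, a log2 difference of 1.64 (3.12-fold). Its other probe set had signals of 1004 and 1502, a log2 difference of 0.57. Both were higher in the injury pool, but only the brighter passed 2-fold. These Tubb5 values differed by 1.07 between probe sets of the same gene, and 31.4% of the 5028 genes with several kept probe sets had as wide a range.

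Actg1 encodes cytoplasmic gamma-actin and was read by 1 probe set. Its signal went from 1561 in the sham pool to 19163 in the injury pool, a log2 difference of 3.60 (12.2-fold), with both signals above the array medians. The suffix of this probe set is _s_at, so transcripts of other genes may add to the value, and no other probe set names Actg1 alone.

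Actb encodes beta-actin, which differs little in protein sequence from gamma-actin and is often used as a reference gene. Its brighter probe set had signals of 18272 and 33425, a log2 difference of 0.87, under 2-fold. The other went the opposite way, from 4740 to 3539 (-0.42). The array also carries 3 control probe sets along the beta-actin transcript. Near the 3′ end the signals were 16196 and 31292 (0.95), in the middle 11655 and 25924 (1.15), and near the 5′ end 11707 and 25286 (1.11). Of the 5 readings of Actb, 4 were therefore higher in the injury pool, by 0.87 to 1.15 on the log2 scale, and 1 was lower. These readings share a gene and 2 RNA pools and are not replicates. Signal near the 3′ end was 1.38 times that near the 5′ end in the sham pool and 1.24 times in the injury pool, and the control probe sets of Gapdh, a glycolysis enzyme, were higher by 0.45 to 0.49. Under quantile normalization the median of the beta-actin controls was 0.81, and the brighter probe set stood at 0.55.

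Neither alpha tubulin read passed 2-fold. Tuba1a, a main alpha tubulin of developing neurons that other tissues also express, had signals of 593.3 and 1008, a log2 difference of 0.75. Its probe set has the suffix _x_at, which marks probes that can cross-hybridise. Tuba4a encodes the alpha tubulin that is made without the C-terminal tyrosine, and 3 probe sets read it. The brightest had signals of 9564 and 8526 (-0.17), the next 4149 and 2620 (-0.66) and the dimmest 261.9 and 587.0 (1.12). They do not give Tuba4a a common direction, and their range of 1.78 was matched or exceeded by 13.7% of the genes with several kept probe sets. A further 5 probe sets name Tuba1a, Tuba1b, Tuba1c or Tubb2b together with another gene and read no gene here. Their log2 differences ran from -0.18 to 1.04, and 1 of them reached 2-fold, with signals of 63.3 and 146.6 that lie under both array medians.

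**Figure D2:**
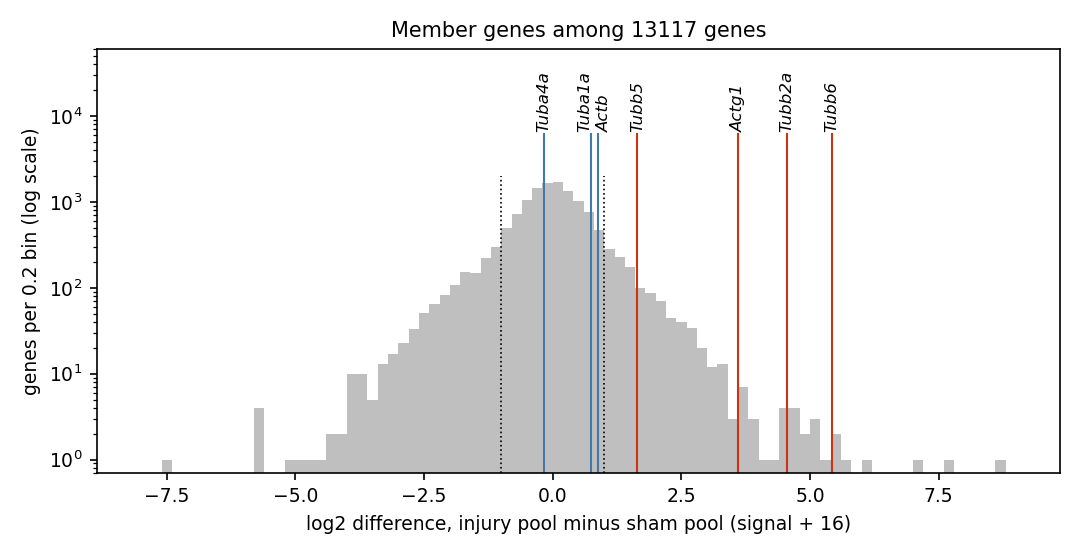
Number of genes (log scale) by log2 difference in bins of 0.2 over 13117 genes, with the 7 members read as vertical lines, red at 2-fold or more and blue below it; dotted lines mark 2-fold. Tubb6, drawn at its measured difference, Tubb2a and Actg1 lie in the thin upper tail, and Tuba4a, Tuba1a and Actb lie within the bulk of genes.

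Counted by probe set, 6 of the 12 kept member probe sets were at least 2-fold higher, none was 2-fold lower and 3 were lower by less. Of the 6 higher ones, that of Tubb6 and the dimmer one of Tubb2a were kept through the injury pool alone. A further one is the dimmest of Tuba4a, whose sham signal of 261.9 lies just above the median of 257.0. The brighter probe sets of Tuba4a were lower (-0.17 and -0.66). Where both signals had to reach the array medians, 6 members were read and 3 were 2-fold higher, against 5.14% of all genes (6.17% were lower). Of all 21003 kept probe sets that name 1 gene, 10.4% were 2-fold higher and 10.8% 2-fold lower. The 7 members had a median log2 difference of 1.64, against -0.01 over all genes. Probe sets of the same gene disagreed over the whole array with an SD of 0.72 in log2 difference, and 44.7% of the genes with several kept probe sets had them in opposite directions. That SD comes from the same 2 pools and includes no variation between mice.

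The genes nearest to the 2 members with the highest measured log2 differences were looked up among all genes read, by measured signals. Beside Tubb6 (5.42) stood Cidec (5.49), a lipid droplet protein, and Saa1 (5.37), serum amyloid A, followed by Pdk4 (5.71) and Cd14 (5.20). Beside Tubb2a (4.55) stood S100a8 (4.53), a neutrophil calcium-binding protein, and the metallothionein Mt1 (4.48), followed by Apoa4 (4.68) and the serine synthesis enzyme Psat1 (4.71). With 1 difference per gene, this likeness is only in size, and the sham signals of Cidec, Pdk4, S100a8 and Psat1 were, like that of Tubb6, under the array median, so the order of these genes is not set.

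Among 12 other tubulins, 9 genes were read and 2 were at least 2-fold higher, with a median of 0.33. Tubb4b, a beta tubulin of many tissues and of cilia, had signals of 2646 and 8392 (1.66), but 1 of its 4 kept probe sets was lower (-0.32). Delta tubulin, Tubd1, was 2.04 higher as measured, with signals of 63.5, under the array median, and 310.3, so little more than its direction can be given. Epsilon tubulin, Tube1 (-0.49), and the microtubule-nucleating gamma tubulin Tubg1 (-0.43) were the lowest. Of 5 other actins, smooth muscle Acta2 had signals of 1627 and 1940 (0.25) and cardiac Actc1 signals of 745.3 and 406.4 (-0.85), while Acta1 and Actg2 were under the median on both arrays.

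Lists of genes that fold or regulate tubulin had medians near 0. Of 16 genes of the CCT chaperonin and its partners, which fold actin and tubulin, 2 were higher by 2-fold or more and none was as much lower (median 0.26). These were the prefoldin subunit Vbp1 (1.33) and the phosducin-like Pdcl3 (1.06). The chaperonin subunit Cct2 stood at 0.87, and Cct4 (-0.39) and Pfdn1 (-0.32) were the lowest. Of 12 tubulin cofactors and regulators, Tbcb, which binds alpha tubulin, was the only 1 past 2-fold on the higher side, with signals of 806.4 and 1746 (1.10). Ttc5 had signals of 384.0 and 150.4, and since the latter is under the array median it was at least 1.48-fold lower. The list's median was 0.04. Of 23 microtubule-associated and motor genes read, 1 was 2-fold higher and 2 were 2-fold lower (median 0.09). The kinesin light chain Klc1 was at least 1.35-fold higher (61.8 to 353.8) and the plus-end protein Mapre3 stood at 0.96. Mapre2, also a plus-end protein, was lower (956.6 to 329.9, -1.49) with its 3 probe sets in both directions, and Tppp3 was lower as well, from 388.1 to 127.8.

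On the actin side, 13 genes were read for the Arp2/3 complex, which nucleates branched filaments, for capping proteins and for other actin regulators. Those others are Wasl, Wasf2, Cttn and Diaph1. All 13 were above 0 (median 0.36), as were 6467 of all 13117 genes. Of the 13, 8 were above 0 with hybridisation controls as the reference, an alternative described below. Cortactin, Cttn, was the only 1 past 2-fold, from 1476 to 3465 (1.22), with its 4 probe sets all higher, and Arpc5 was next (0.80). The lowest were Wasl (0.03) and Arpc1a (0.06), and the probe sets of Wasl and of Arpc5l disagreed in direction. Genes of actin monomer binding and filament turnover went both ways (15 read, 1 past 2-fold on the higher side and 2 on the lower, median 0.18). The capping protein Capg was at least 1.55-fold higher and cofilin, Cfl1, stood at 0.73. Coro1b, a coronin, was at least 4.93-fold lower (1316 to 141.6), and Cap2 at least 1.52-fold lower. Of 25 crosslinkers and myosins read, 3 were 2-fold higher and 3 were 2-fold lower (median 0.08). The tropomyosins Tpm4 (775.2 to 2322, 1.56) and Tpm1 (1.16) were the highest, although the probe sets of Tpm1 disagreed in direction. Plastin 3, Pls3 (2214 to 620.4, -1.81), was lower, and the nonmuscle myosin Myh10 was at least 1.04-fold lower.

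Targets and partners of SRF and MRTF had a median of 0.64, with 6 of the 22 genes read higher by 2-fold or more and none as much lower. Junb, an immediate early gene, was at least 7.93-fold higher, and Egr1, an immediate early transcription factor, went from 841.8 to 6094 (2.83). Ier2, also an immediate early gene, stood at 1.20 and Fos, another, at -0.04. Srf itself had signals of 776.2 and 1372 (0.81) and Mrtfa signals of 365.8 and 729.5 (0.97). Lima1 (-0.55) and the myosin light chain Myl9 (-0.52, under the median in the injury pool) were the lowest. Fhl2, Tagln and Cnn1 were under the median on both arrays, and 10 of the 25 listed genes also stand in other lists here. Of the intermediate filament list, 3 of the 7 genes read were 2-fold higher. The keratins Krt8 (4126 to 18695) and Krt18 (3552 to 16156) both had a log2 difference of 2.18. The 3 probe sets of Krt8 ran from 1.18 to 2.18, and the linker plectin, Plec, stood at 1.16. Desmin, Des (-0.38), and lamin B1, Lmnb1 (-0.20), were the lowest. Of the proliferation genes, 9 of 17 were under the median on both arrays, and the 8 read had a median of 0.13. Mcm3 was the highest, at least 1.52-fold, although its 2 probe sets disagreed in direction. Thymidine kinase, Tk1, was the lowest, at least 2.51-fold lower.

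**Figure D3:**
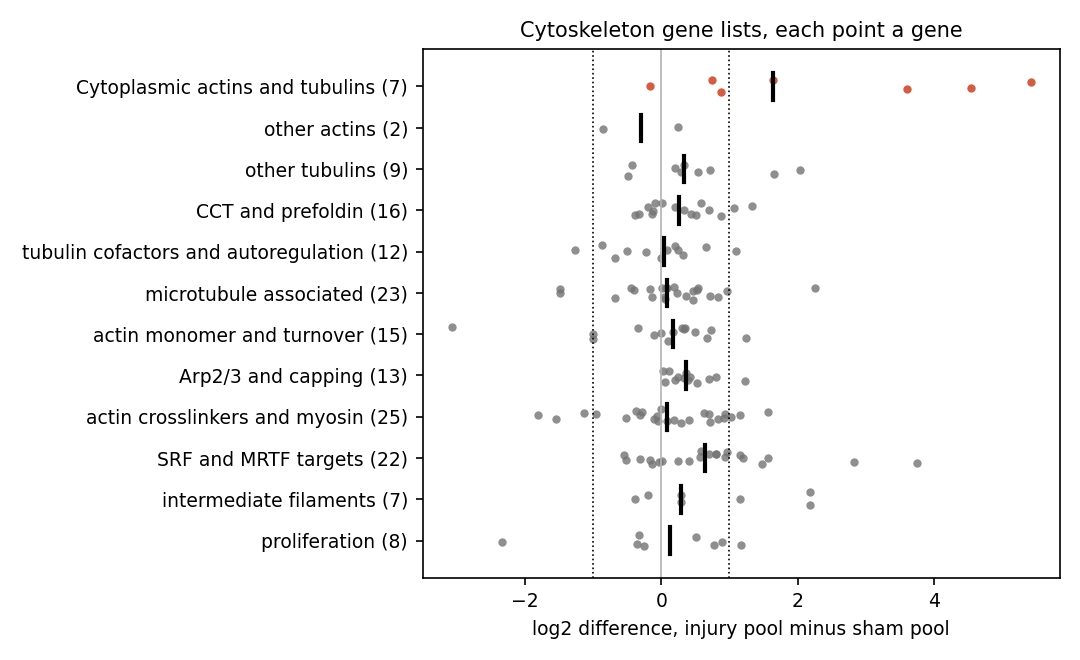
Log2 difference of each gene read (points) in the members and 11 further cytoskeleton and related lists, with the number of genes in brackets, the list's median as a black bar and dotted lines at 2-fold. The members, in red, have a median of 1.64, and the list of SRF and MRTF targets has the next highest, 0.64.

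Several of these counts and medians rest on signals under the array median. Setting each such signal to the median left 5.59% of all genes 2-fold higher and 6.62% lower, and the members had 4 higher and a median of 1.64. The microtubule-associated genes then had none higher and 1 lower, the turnover genes none higher and 1 lower, the crosslinkers 3 higher and 2 lower, the other tubulins 1 higher, and the SRF and MRTF targets 5 higher. The median of the proliferation genes became -0.06.

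The sign of several list medians depends on the reference. Every 1 of the 18 hybridisation controls, which read transcripts added to each sample, was brighter on the injury array, with a median log2 difference of 0.28. Taking them as the reference shifts every difference by -0.28. The median of all genes was then -0.30, with 5.76% of them 2-fold higher and 15.4% 2-fold lower. The members' median was 1.36 with 4 at least 2-fold higher, and that of SRF and MRTF targets 0.36. The medians of the chaperonin list (-0.02), the tubulin cofactors (-0.24), the microtubule-associated genes (-0.20), the turnover genes (-0.11), the crosslinkers (-0.20) and the proliferation genes (-0.15) turned below 0.

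Whole liver holds several cell types that contain actin and tubulin, and in pooled tissue a change in the number of cells of a type and in the RNA per cell cannot be told apart. Marker lists of other cell types were read beside the members. Hepatocyte markers were bright in both pools, with a median of 0.45, which became -0.09 under quantile normalization. Pancreatic acinar markers were higher in the injury pool, 7 of 8 by at least 2-fold, and their summed signal went from 5197 in the sham pool to 13766 in the injury pool. All 3 biliary markers read were higher, Sox9 by 1.16 and, against the sham median, Krt19 by at least 1.93-fold and Epcam by at least 4.38-fold. The biliary signal, summed over all 7 genes with a probe set, was 1123 and 2640, and Krt7, Cldn7, Cftr and Prom1 were under the median on both arrays. Neutrophil markers had 2 of 9 genes 2-fold higher, S100a8 (at least 5.21-fold) and S100a9 (at least 2.95-fold), while Mpo (0.07) and Elane (-0.44) were not and Cxcr2 was at least 1.14-fold lower. The neutrophil list's median of 0.22 became -0.07 with hybridisation controls as the reference. The neutrophil signal, summed over all 11 genes with a probe set, was 5762 and 8027. With signals under the array median set to it, 2 of 3 biliary markers (median 1.16) and 7 of 8 acinar markers passed 2-fold. What part the acinar, biliary and neutrophil signals have in the actin and tubulin differences was not tested.

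Lists for the other cell types had medians near or below 0. Stellate and smooth muscle markers had a median of -0.43 over 10 genes, with signals of 13972 and 16794 summed over all 14 genes with a probe set, decorin, Dcn (1.02), being the highest. Kupffer cell and monocyte markers had a median of -0.37 over 9 genes (12679 and 9162 summed over all 10 with a probe set), Cd5l being the lowest (-1.57). Sinusoidal endothelial markers had a median of -0.40 over 10 genes (11627 and 10560). Oit3 was the lowest, at least 1.20-fold lower (307.5 to 33.6), followed by Clec4g (-1.05), and Lyve1 was the highest (3.01). Lymphocyte markers had a median of 0.05 over 5 genes and erythroid markers one of -0.12 over 3.

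**Figure D4:**
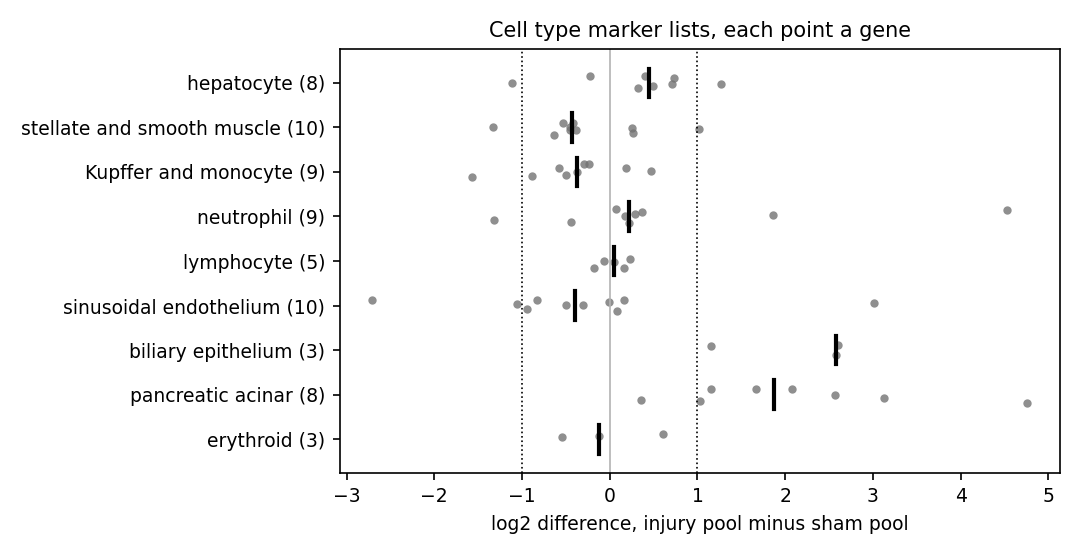
Log2 difference of each gene read (points) in 9 lists of cell type markers, with the number of genes in brackets, the median as a black bar and dotted lines at 2-fold. Pancreatic acinar (median 1.87) and biliary markers (median 2.58) lie to the right, and stellate, Kupffer and endothelial markers have medians below 0.

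The direction of the members was compared over the ways of reading the arrays. Actg1, Tubb2a, Tubb5, Tubb6 and Tuba1a were higher in the injury pool in every alternative that gave them a value. Without probe sets that can cross-hybridise, 5 members were read and 3 passed 2-fold as measured, against 8.86% of all genes higher and 9.77% lower. Of these 3, Tubb2a then rested on its dimmer probe set, with a bound of 1.25-fold. That probe set and the one of Tubb6 were kept through the injury pool alone. Only Tubb5 had both signals above the array medians, and Actg1 and Tuba1a had no value. At a threshold of 1.5-fold, 6 members were higher and none lower, against 18.7% and 19.3% of all genes. At 3-fold, 4 were higher and none lower, against 3.6% and 4.49%. By probe set, 8 were higher and 1 lower at 1.5-fold, against 20.5% and 20.3% of all, and 5 higher and none lower at 3-fold, against 4.49% and 5.2%. Each of these higher counts by probe set includes the dimmer one of Tubb2a and that of Tubb6, both kept through the injury pool alone. Where each gene was read by its least different probe set, Actb became -0.42 and Tubb5 0.57. Then 3 members passed 2-fold as measured, against 7.06% of all genes higher and 8% lower. Of these, Tubb2a, again by its dimmer probe set, and Tubb6 were kept through the injury pool alone, and only Actg1 had both signals above the array medians. Further, Tuba4a became 0.10 by the mean of its probe sets.

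**Figure D5:**
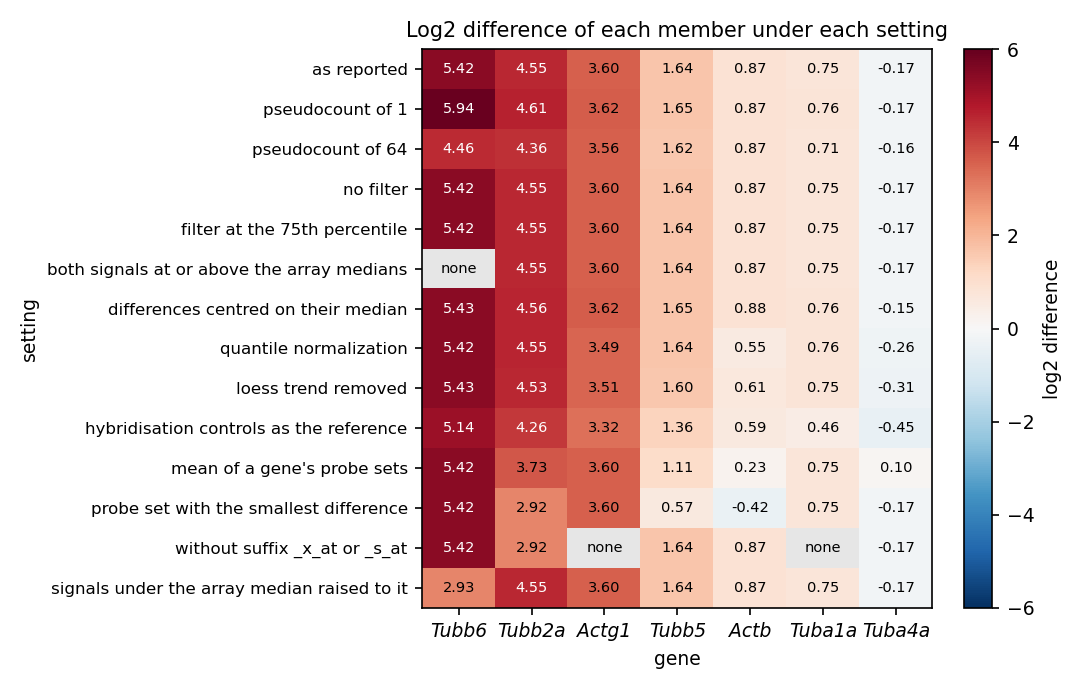
Log2 difference (number and colour, red higher and blue lower in the injury pool) of each member (columns) as reported and under each alternative that changes a difference (rows); none marks a gene without a value there. Tubb6, Tubb2a and Actg1 are above 0 wherever they have a value, Tubb2a by a dim probe set (29.2 in the sham pool) in a pair of rows, and Actb and Tuba4a each change sign in 1 alternative.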

How the data were processed

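Liver RNA of 2 pools, 3 mice each, was measured on 1 Affymetrix array per pool. Per the labels' protocols, biotinylated cRNA was prepared from 6 ug of total RNA extracted with Trizol. The deposited values are a linear intensity for each of 45101 probe sets, 64 of them controls. Trimmed by 2% at both ends, the mean of each array was 500.0, so the authors had scaled the intensities to a common target. Software and background correction: not given in the sources used here. The number of arrays limits the precision.

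Gene names came from a possibly outdated platform annotation and were updated through Entrez IDs for 34741 of 34945 probe sets that name 1 gene. 932 name several genes and 9160 none. Log2 differences used a pseudocount of 16, the filter at the array median, and the kept probe set with the highest mean log2 signal. Named genes are all members, the 2 highest and 2 lowest genes of most lists, and any gene past 2-fold in the short lists. The members and lists were chosen with earlier results of these data known. Alternatives changed the pseudocount (1, 64), filter, scaling (including loess, span 0.3), choice of probe set and threshold. Steps were checked on simulated data. Python 3.11.15, pandas 2.3.3 and statsmodels 0.14.6 were used. Protein sequences were not used here.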

Additional observations from a re-analysis of the deposited data

How the results depend on the processing

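Over 13 alternatives that keep the 2-fold threshold, the number of members past it on the higher side ran from 3 to 5 against 4 as reported, while 5.14% to 9.18% of all genes were so. None of these 13 alternatives gave a member 2-fold lower, while 6.17% to 15.4% of all genes were so. With so few members read, nothing is drawn from that absence. The member probe sets at least 2-fold higher ran from 4 to 7 over 11 alternatives, against 6 as reported. As reported, 10.4% of all kept probe sets that name 1 gene were so. The 7 came without the filter, which adds the dim Tubb2b. The members' median ran from 0.75 to 1.65 over 13 alternatives, and its lowest value, 0.75, came where each gene was read by its least different probe set. The median of the beta-actin control probe sets ran from 0.81 to 1.12 over 6 alternatives. For single members, Tubb6 was 4.46 with a pseudocount of 64 and 2.93 with dim signals raised to the array median, and Tubb2a was 3.73 by the mean of its probe sets. Both Tubb6 settings act on its dim sham signal of 32.6, and 3.73 is the mean of the Tubb2a readings of 4.55 and 2.92. No paired analysis was possible because each group has 1 array. No replicate could be left out for the same reason. Signals under the array medians limit Tubb6, Tubb2b and the dimmer Tubb2a probe set to bounds or to no fold.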
